A study of Mus musculus with 9 samples.

Results

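The genes described here are 8 caspase and inflammasome genes, Casp1, Casp8, Casp9, Casp12, Nlrp3, Pycard, Gsdmd and Il18, chosen by name from the 20731 gene symbols counted in 9 mouse brain libraries. Brain RNA was sequenced on day 2 from 3 mice in each of 3 groups. Male C57BL/6J mice aged 8 to 10 weeks were used, and every mouse, including those of the reference group, had cerebral venous sinus thrombosis (CVST), induced at the superior sagittal sinus with ferric chloride. The CVST group had thrombosis alone. In the CVST+Ligation group (labelled CVST_Ligation) the deep cervical lymph nodes, which receive the drainage of the meningeal lymphatic vessels, were ligated as well. The 4-PBA group (labelled CVST_Ligation_4_PBA) had thrombosis and ligation and was given 4-phenylbutyric acid, a chemical chaperone that lowers endoplasmic reticulum (ER) stress, at 100 mg/kg into the peritoneum. The methods place this injection 30 min before modelling and the design text places it after ligation. The methods name a separate Control group, not among the libraries used here, and give solvent for control mice without saying whether the CVST and CVST+Ligation mice received it. No mouse without thrombosis is among the 9 libraries, so the values compare ligation and 4-PBA within CVST and say nothing of CVST itself.

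An inflammasome is a cytosolic complex in which a sensor such as NLRP3 recruits the adaptor ASC, encoded by Pycard, which in turn gathers and activates caspase-1. Caspase-1 cleaves the precursors of interleukin-1β and interleukin-18 and also gasdermin D, whose released fragment forms pores in the plasma membrane and causes a lytic death called pyroptosis. Caspase-8 starts apoptosis at death receptors, caspase-9 starts it at the apoptosome once mitochondria release cytochrome c, and caspase-12 resides at the ER of rodents and has been used as a marker of ER stress. These caspases and IL-18 are made as inactive precursors and activated by dimerisation or cleavage of the protein, which a level of RNA does not show. In the brain, microglia are a main source of NLRP3, ASC and caspase-1.

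Casp1, Casp4 and Casp12 lie next to each other on the plus strand of chromosome 9 in GRCm38, the build named in the labels. Casp1 spans chr9:5298517-5307265, Casp4 spans chr9:5308828-5336783 and Casp12 spans chr9:5345430-5373032. Il18 is on the same chromosome at chr9:50554827-50581840. The other members are at chr1:58795374-58847503 (Casp8), chr4:141793612-141815976 (Casp9), chr11:59541568-59566956 (Nlrp3), chr7:127989708-127993867 (Pycard, minus strand) and chr15:75862327-75867408 (Gsdmd). Casp12 is the member for which RT-qPCR primers were listed with the study, and they are shown because they fix which part of the transcript that assay reads. Both lie in coding exon 7 of 11, at chr9:5353674-5353695 and chr9:5353816-5353837, and enclose 164 bases. Among the annotated transcripts, Casp12 alone holds both.
Casp12 forward primer: agcaccagtcctcagacagcac
Casp12 reverse primer: gggtttgtttctcagactccga

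The sequences before the start sites of Casp12 and Nlrp3 are shown because these are the ER and the sensor gene of the set. Of 8 motifs searched on both strands in the 250 bases before the start site of 32851 RefSeq promoters (GRCm38), the capitals mark those of a STAT site (GAS, TTCNNNGAA), an NF-kB site and a C/EBP-ATF composite site (CARE, TGATGNAA). The Casp12 window at chr9:5345226-5345475 held 2 GAS matches, at -102 and -36 from the RefSeq start site. GENCODE places the start of Casp12 further upstream, at 5345430, so the second match, at chr9:5345440-5345448, lies inside the gene by that annotation. Both sequences are printed only up to the base before the GENCODE start, and the second match is therefore not in the Casp12 line. At least 1 GAS match was in 7.0% of windows and at least 2 in 0.32%. The Nlrp3 window at chr11:59541319-59541568 held 1 NF-kB match at -186, found in 17.6% of windows, and 1 CARE match at -78, found in 3.5%. A second RefSeq promoter of Nlrp3, at chr11:59542436-59542735, held no match to these motifs. Of the 7 members with a promoter in this set, only Casp12 had a GAS match and only Nlrp3 an NF-kB or CARE match. The ER stress element (ERSE) was in none of the windows of these 7 members and in 0.1% of all windows. The 4 other motifs were the interferon-stimulated response element ISRE (no member, 3.0% of windows), AP-1 (TGANTCA, no member, 6.7%), the E-box (CANNTG, 6 of 7 members, 66.2%) and the GC box (GGGCGG, Casp9, 32.7%). A match is a run of letters and was not tested for binding.
Casp12: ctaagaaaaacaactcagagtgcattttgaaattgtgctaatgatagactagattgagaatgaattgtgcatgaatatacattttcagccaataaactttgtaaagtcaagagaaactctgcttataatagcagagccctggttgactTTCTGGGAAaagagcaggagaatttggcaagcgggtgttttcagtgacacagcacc
Nlrp3: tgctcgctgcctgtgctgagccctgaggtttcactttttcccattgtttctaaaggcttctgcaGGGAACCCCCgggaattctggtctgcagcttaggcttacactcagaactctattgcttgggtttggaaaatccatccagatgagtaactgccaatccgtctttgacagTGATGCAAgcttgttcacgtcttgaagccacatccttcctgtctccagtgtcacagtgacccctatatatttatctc

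Between 18100739 and 25091498 reads per mouse were counted on genes (median 23358349). The libraries also differed in the marker genes of brain regions. Between CVST+Ligation and CVST, 10 of 10 striatal genes were lower at an unadjusted p of 0.05 (median log2 fold change -2.27), 9 of 10 genes of midbrain dopamine neurons were higher (median 5.29), 3 of them after adjustment, and 7 of 10 thalamic genes were higher (median 1.53). The summed level of 10 cortical excitatory neuron genes was 2397 to 2791 CPM (counts scaled to library size) in CVST, 741 to 2064 in CVST+Ligation and 808 to 1242 in 4-PBA. A set of hypothalamic genes summed to 8.16 to 48.3 CPM in CVST, 11.5 to 67.0 in CVST+Ligation and 304 to 629 in 4-PBA, and cerebellar genes reached 1426 CPM in CVST+Ligation replicate 2 against 159 to 278 in the other 8 libraries. The labels name the tissue as brain and the design text as cortex. A change inside cells and a different share of regions or cell types in the sample cannot be told apart in these bulk libraries, nor can fewer cells of a type and less RNA per cell. The part of region in the results for the 8 genes was not tested.

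By FPKM (reads scaled to library size and to a single length per gene), Il18 was the most abundant member and Nlrp3 the least. The median over the 9 libraries was 37.1 FPKM for Il18, 9.43 for Pycard, 8.35 for Casp9 and 5.19 for Casp8. It was 3.05 for Casp1, 2.38 for Gsdmd, 1.52 for Casp12 and 0.668 for Nlrp3. The lengths behind these values were 579 bases for Pycard and 1362 for Casp9, where the longest annotated coding transcripts have 3800 and 3897. The order depends on these lengths. By median CPM, Casp9 (11.5) exceeded Pycard (5.61) and Nlrp3 (2.06) exceeded Casp12 (1.90). Il18 exceeded Pycard in 9 of 9 libraries with ranges that did not meet, and so did Casp8 over Casp1. The other neighbours in this order had overlapping ranges, and Casp12 over Nlrp3 was the only such pair ordered alike in 9 of 9 libraries. Il18 lies opposite Bco2 and Casp9 lies opposite Cela2a, with overlapping exons, and the methods name an orientation mode of the aligner without saying whether strand was used in counting. Bco2 had 100 to 198 counts beside 293 to 597 for Il18, and Cela2a 50 to 88 beside 174 to 281 for Casp9, so part of either level may belong to the partner. An exon of Pycard is also overlapped on the opposite strand, by Gm45205, which was not among the counted genes. Casp8 shared 5.05% of its 50-base windows with the gene Gm20257, and the other 7 members shared none with another gene.

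The first comparison asks whether ligation altered these genes in thrombosed brain. None of the 8 members passed an unadjusted p of 0.05 in edgeR's quasi-likelihood test, against 9.64% of the 14746 genes tested, and none passed after Benjamini-Hochberg adjustment, where 0.0203% of genes did. Their fold changes ran from -0.46 to 0.41 on the log2 scale with a median of -0.13, beside 0.00 over all genes, and the unadjusted p values ran from 0.267 to 0.819. All 8 had passed the filter on low counts.

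Nlrp3, the sensor, was at 2.12, 2.26 and 0.814 CPM in CVST, 2.40, 2.06 and 1.45 CPM in CVST+Ligation and 1.52, 1.85 and 2.86 CPM in 4-PBA. The groups overlapped throughout. Ligation differed from CVST by 0.18 ± 0.45 (log2 fold change ± SE, adjusted p = 0.914), with a 95% interval from -0.84 to 1.19. Nlrp3 rested on 15 to 75 reads per library. The difference was -0.18, the opposite direction, without CVST replicate 3 and 0.0050 without CVST+Ligation replicate 1. A 2-fold rise lay within the interval with all mice and a 2-fold fall outside it.

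Pycard, the adaptor, read 5.61, 9.22 and 7.21 CPM in CVST, 4.26, 6.34 and 5.45 CPM in CVST+Ligation and 2.98, 2.10 and 8.04 CPM in 4-PBA. The first 2 mice of the 4-PBA group were the lowest of all 9 and the third was the second highest. The difference of ligation from CVST was -0.46 ± 0.46 (adjusted p = 0.756).

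Casp1, the effector protease of the inflammasome, was at 1.10, 4.30 and 5.26 CPM in CVST, 1.98, 3.61 and 3.78 CPM in CVST+Ligation and 2.55, 4.25 and 2.82 CPM in 4-PBA. The spread among the CVST mice, 4.76-fold from lowest to highest, covered every value of the other groups. Ligation differed by -0.18 ± 0.53 (adjusted p = 0.923), by 0.19 without CVST replicate 3, by 0.053 without CVST+Ligation replicate 1 and by -0.62 without CVST replicate 1.

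Gsdmd, which encodes the pore former, was at 2.89, 5.50 and 3.74 CPM in CVST, 2.85, 4.43 and 2.51 CPM in CVST+Ligation and 3.41, 2.40 and 5.07 CPM in 4-PBA, and the groups overlapped. Il18, the cytokine precursor, was at 12.5, 21.2 and 32.4 CPM in CVST, 21.7, 21.2 and 20.0 CPM in CVST+Ligation and 28.9, 24.8 and 21.7 CPM in 4-PBA. The 3 ligated mice without 4-PBA were within 1.09-fold of each other for Il18, whereas the CVST mice spanned 2.60-fold.

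Casp8 was the single member whose CVST and CVST+Ligation groups did not overlap. It was at 8.54, 10.8 and 9.93 CPM in CVST and at 7.56, 7.47 and 7.30 CPM in CVST+Ligation. The fitted difference was -0.39 ± 0.33 (adjusted p = 0.716), and the exact two-sided permutation test gave 0.1, the smallest p that 3 against 3 libraries allow. Of all genes tested, 13.8% had groups that did not overlap in this comparison and 7.21% were lower without overlap, so 1 of 8 is near the background.

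Casp9 varied least, between 9.44 and 12.2 CPM over the 9 mice, and its SD was at the 5.53 percentile of all genes tested. Ligation differed from CVST by 0.06 ± 0.17, with a 95% interval from -0.32 to 0.45, and by -0.051 without CVST replicate 3. Casp12 was at 1.57, 2.17 and 1.36 CPM in CVST and at 0.992, 4.59 and 1.27 CPM in CVST+Ligation. The level in replicate 2 of the ligated group was over the other 8 libraries, and the remaining 2 mice of that group were the lowest of all. With all mice the difference was 0.41 ± 0.55 (adjusted p = 0.826), and without that library it was -0.59 (adjusted p = 0.744). That library also had the highest cerebellar (1426 CPM) and endothelial (489 CPM) marker sums of the 9, whose part in the Casp12 value was not tested.

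**Figure D1:**
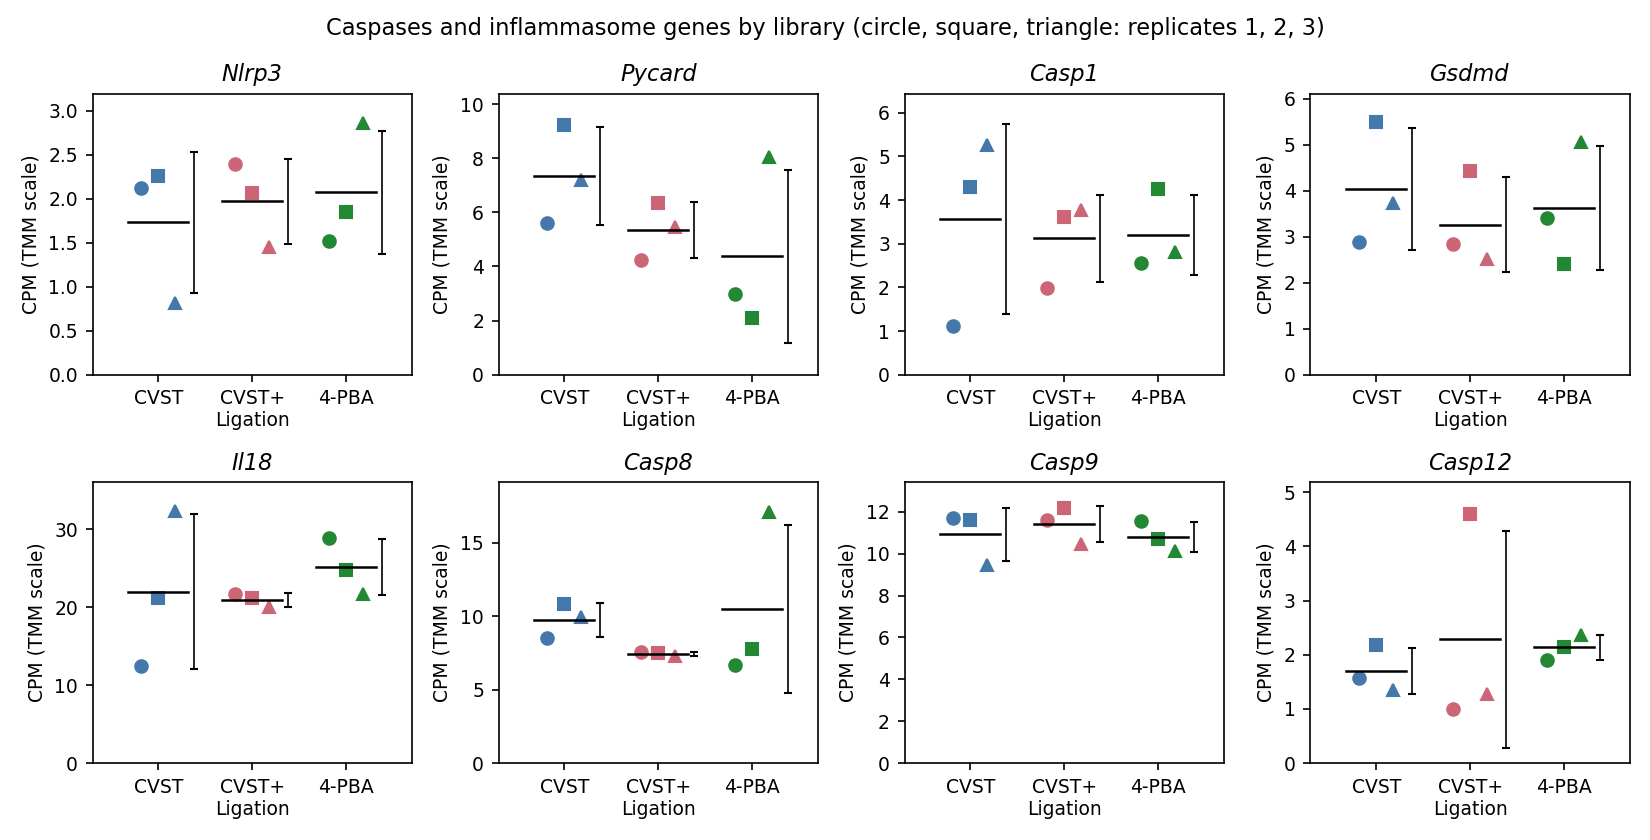
Level of each of the 8 genes in CPM on the TMM scale (y axis, from 0) in the CVST, CVST+Ligation and 4-PBA groups (x axis); symbols are single mice, horizontal bars the group mean and whiskers the SD of 3 mice. Groups overlap for every gene except Casp8 between CVST and CVST+Ligation, and single mice stand apart for Casp12 (4.59 CPM) and Casp8 (17.1 CPM).

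The second comparison asks whether 4-PBA altered the genes in ligated mice. Again none of the 8 passed an unadjusted p of 0.05, against 3.23% of all genes, and no gene of the 14746 passed after adjustment with edgeR, where DESeq2 called 22 genes and none of the 8. No member had groups that did not overlap, beside 7.73% of all genes. The smallest unadjusted p belonged to Casp8, which was at 6.66, 7.74 and 17.1 CPM in 4-PBA. Replicate 3 held more than any other library, and the other 2 mice lay around the ligated values, so that the difference of 0.50 ± 0.33 (adjusted p = 0.9998) became -0.05 without it. Without replicate 1 it was 0.76 (adjusted p = 0.997).

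Pycard and Casp12 depended on single mice as well. Pycard differed between 4-PBA and CVST+Ligation by -0.28 ± 0.46 (adjusted p = 0.9998) with all mice, and by -1.08 (adjusted p = 0.9999) without 4-PBA replicate 3. Without 4-PBA replicate 1 or replicate 2 the Pycard difference was -0.050 and 0.051, so its direction turned without replicate 2. Casp12, at 1.90, 2.15 and 2.36 CPM in 4-PBA, differed by -0.09 ± 0.55 (adjusted p = 0.9998), and by 0.93 (adjusted p = 0.480) without CVST+Ligation replicate 2. The direction of the Casp12 difference therefore turned with that mouse.

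When both libraries were left out together, a setting chosen after seeing the data, Pycard differed by -0.93 (adjusted p = 0.437) and Casp12 by 0.84 (adjusted p = 0.597). Differences for the other members with all mice ran from -0.08 for Casp9 to 0.26 for Il18, with p values of 0.396 to 0.940. The intervals were wide for the low genes, from -0.93 to 1.09 for Nlrp3 and from -1.14 to 1.22 for Casp1, and narrow for Casp9, from -0.47 to 0.30.

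**Figure D2:**
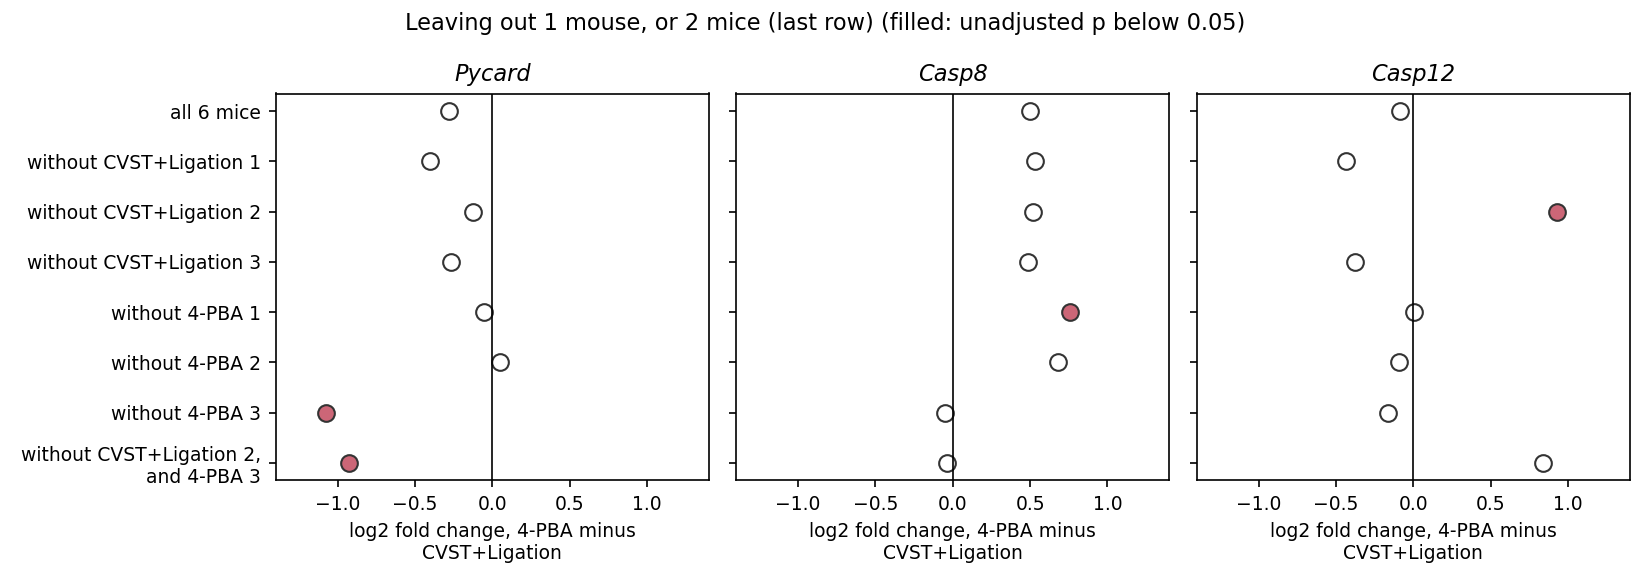
Log2 fold change of 4-PBA minus CVST+Ligation (x axis) for Pycard, Casp8 and Casp12 with all 6 mice, without each mouse in turn and without 2 mice together (rows); filled points have an unadjusted p below 0.05. Pycard moves from -0.28 to -1.08 without 4-PBA replicate 3, Casp8 from 0.50 to -0.05, and Casp12 from -0.09 to 0.93 without CVST+Ligation replicate 2.

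The third comparison sets 4-PBA against CVST and shares its libraries with the other two. None of the 8 members passed an unadjusted p of 0.05, against 15.4% of all genes, none passed after adjustment, against 0.122%, and none had groups that did not overlap, against 23.7%. Pycard had the smallest unadjusted p, with -0.74 ± 0.46 (adjusted p = 0.480). Without 4-PBA replicate 3 it was -1.53 (adjusted p = 0.0886), and with CVST+Ligation replicate 2 also left out it was again -1.53 (adjusted p = 0.0468). Without 4-PBA replicate 1 or replicate 2 it was instead -0.51 (adjusted p = 0.819) and -0.41 (adjusted p = 0.800). Over every setting run, the value with both libraries left out was the only value of a member that passed after adjustment. Il18 differed by 0.19 ± 0.29 with all mice, by 0.56 (adjusted p = 0.295) without CVST replicate 3 and by -0.084 (adjusted p = 0.894) without CVST replicate 1. In the test for any difference among the 3 groups, the 8 genes had p values of 0.302 to 0.935, where 11.1% of all genes passed 0.05.

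**Figure D3:**
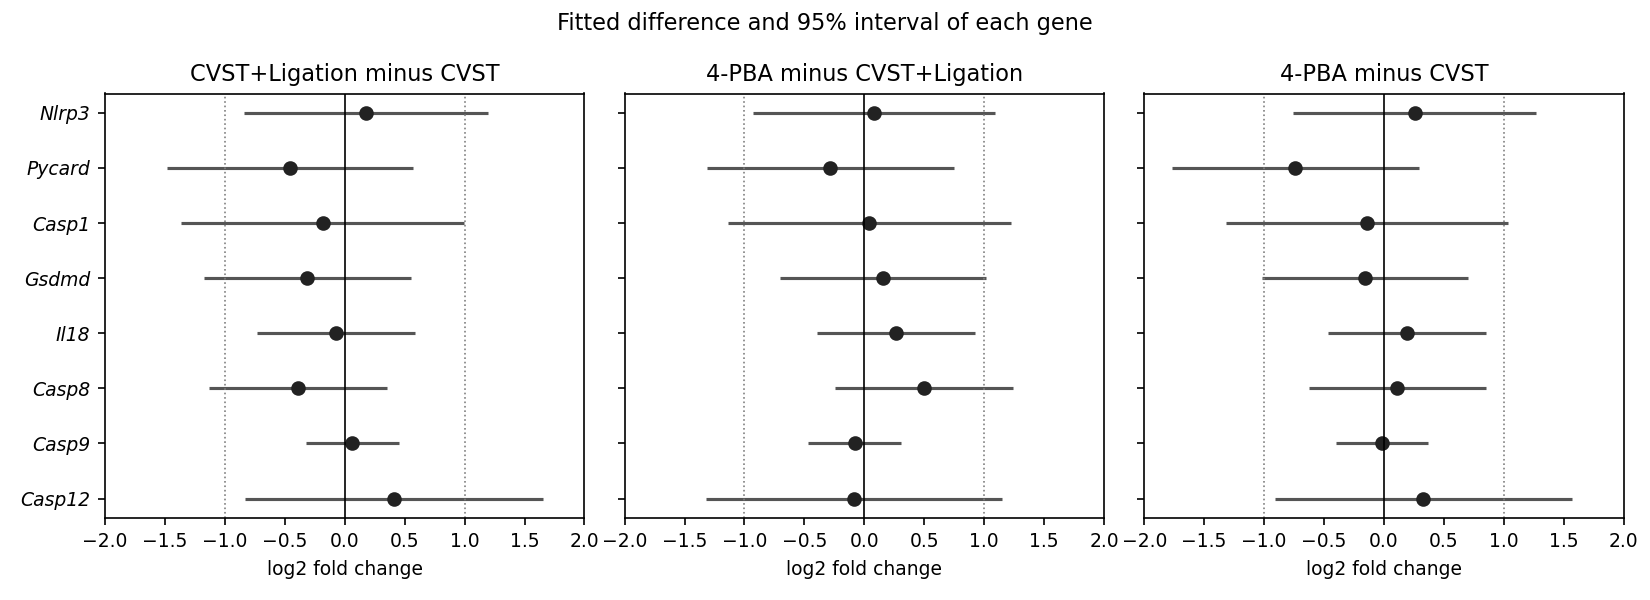
Fitted log2 fold change (points) with its 95% interval (lines) for each of the 8 genes in the 3 comparisons (panels); dotted lines mark a 2-fold difference. Every interval includes 0, and Casp9 has the narrowest, from -0.32 to 0.45 in CVST+Ligation minus CVST.

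In 4-PBA, replicate 3 was the highest of its group for 5 of 8 members (Casp8, Casp12, Gsdmd, Nlrp3 and Pycard) and the lowest for 2 (Casp9 and Il18), and the same 5 genes were highest in CVST replicate 2 within its group. Summed neutrophil markers were 48.6 CPM in 4-PBA replicate 3 and 42.0 CPM in CVST replicate 2, against 9.79 to 20.7 CPM in the other 7 libraries. Summed monocyte markers were 272 and 215 CPM in these libraries, and 232 CPM in CVST+Ligation replicate 2. Of these lists, 7 of 12 neutrophil and 2 of 8 monocyte genes were too low to be tested. 4-PBA replicate 3 and CVST replicate 2 also had the highest astrocyte (3708 and 3184 CPM), endothelial (434 and 449 CPM) and microglial (1226 and 1452 CPM) sums of their groups. In 4-PBA, border macrophage, T cell and neuron sums peaked in replicate 2 and oligodendrocyte sums in replicate 1. The share of all genes highest in these libraries was not computed, and the part of cell content was not tested.

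Microglial markers differed against CVST. Of 16 microglial genes, 9 fell at an unadjusted p of 0.05 with ligation and none rose (median -0.49), beside 9.64% of all genes called in either direction. In 4-PBA against CVST, 7 fell and none rose at that p (median -0.38), beside 15.4% of all genes. In 4-PBA against CVST+Ligation none was called (median 0.055). None of the 16 passed after adjustment in any comparison. Their sum was 1277 to 1452 CPM in CVST, 947 to 1020 CPM in CVST+Ligation and 910 to 1226 CPM in 4-PBA, the highest 4-PBA value being replicate 3. Summed T cell markers were 18.0 to 36.5 CPM in CVST, 8.80 to 12.3 CPM in CVST+Ligation and 8.72 to 16.2 CPM in 4-PBA. Of the 5 T cell genes tested, of 10 listed, 2 were lower with ligation at an unadjusted p of 0.05 and none after adjustment. Of the 5, 2 had a positive difference, 1 was higher without overlap and the median was -0.012. Across the 9 libraries Pycard followed the microglial sum with r = 0.79 (rho = 0.85), Casp8 with r = 0.66 and Gsdmd with r = 0.63, while Casp1, Nlrp3, Casp12, Il18 and Casp9 gave values between -0.20 and 0.01. By rank, Casp8 had rho = 0.73 and Gsdmd rho = 0.67 with microglia. Casp8 also followed the summed neutrophil (r = 0.80, rho = 0.55) and monocyte (r = 0.70, rho = 0.62) markers. Gsdmd followed the monocyte (r = 0.81, rho = 0.70), neutrophil (r = 0.81, rho = 0.63) and astrocyte (r = 0.71, rho = 0.57) markers. The order of these lists for Casp8 turned between r and rho. Pycard also followed the monocyte sum (r = 0.67, rho = 0.78), and Casp8 had rho = 0.75 (r = 0.37) with T cell markers. Casp12 followed the summed markers of endothelium (r = 0.82, rho = 0.85), border macrophages (r = 0.72, rho = 0.75), astrocytes (r = 0.72, rho = 0.67) and neutrophils (r = 0.55, rho = 0.82). Nlrp3 followed those of endothelium (r = 0.68, rho = 0.53), monocytes (r = 0.65, rho = 0.70) and astrocytes (r = 0.58, rho = 0.57), and had rho = 0.30 with microglia. These are descriptions over libraries that share groups and tissue content, and the part of cell content in the members' levels was not tested.

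**Figure D4:**
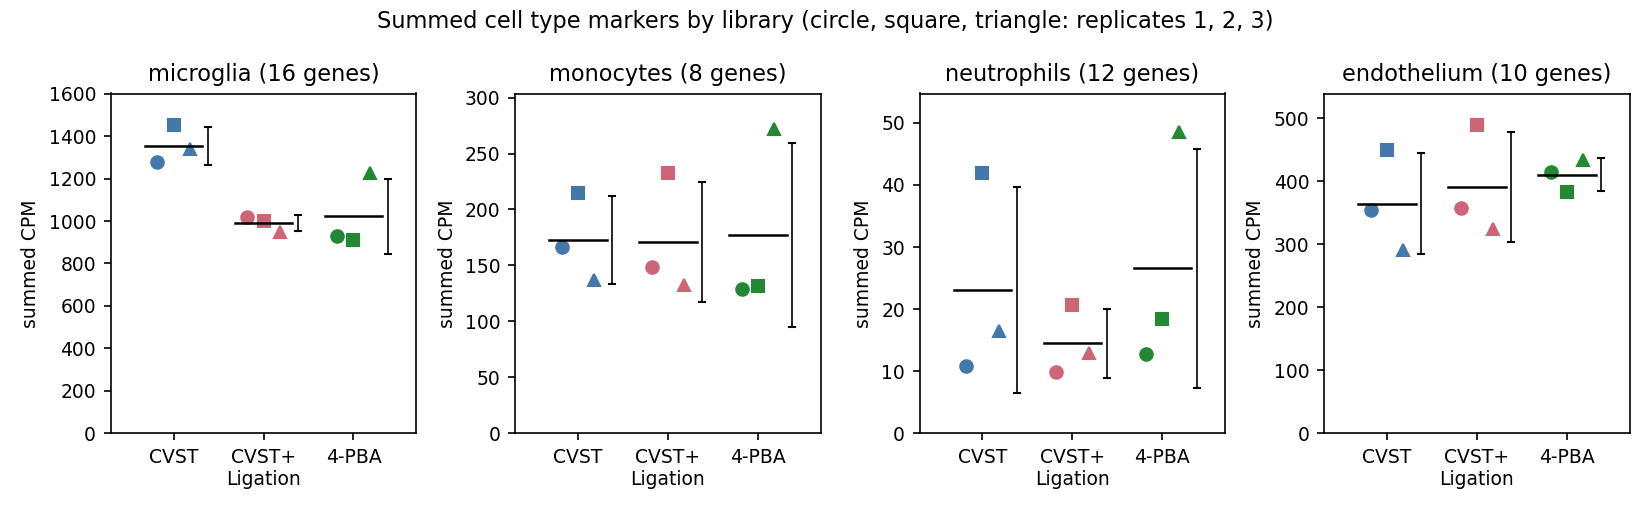
Summed CPM (y axis, from 0) of marker genes of microglia, monocytes, neutrophils and endothelium in each mouse by group (x axis); bars are means and whiskers the SD of 3 mice. Microglial sums are 1277 to 1452 CPM in CVST and 947 to 1020 CPM in CVST+Ligation, and 4-PBA replicate 3 (triangle) has the highest monocyte and neutrophil sums.

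The partners of the 8 genes were read from 8 lists of 127 genes, of which 105 were tested. With ligation 3 of the 105 passed an unadjusted p of 0.05, all lower, which is 2.86% beside 9.64% of all genes, and none passed after adjustment. Gbp5, a guanylate-binding protein that promotes NLRP3 assembly, was at 4.84, 6.47 and 3.47 CPM in CVST and 2.77, 2.99 and 2.90 CPM in CVST+Ligation, without overlap (-0.77 ± 0.30, adjusted p = 0.440). Its relative Gbp3 fell by 0.70 (adjusted p = 0.516), with overlapping groups. Of all genes, 7.21% were lower without overlap. Pmaip1, which encodes the pro-apoptotic protein NOXA upstream of the apoptosome, fell by 1.31 (adjusted p = 0.516) on 4 to 35 reads.

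No gene passed among the other caspases, the sensors, the pore formers, the IL-1 family, the death receptor pathway or the ER stress genes. The smallest unadjusted p in each was that of Casp4, the non-canonical inflammasome caspase (-1.43, adjusted p = 0.623), Naip6, a sensor of bacterial proteins (1.22, adjusted p = 0.550), Mlkl, the pore former of necroptosis (-0.72, adjusted p = 0.668), Il18bp, which neutralises IL-18 (-0.64, adjusted p = 0.595), Ripk3, the kinase upstream of Mlkl (-1.21, adjusted p = 0.516), and Ddit3, which encodes CHOP (-0.25, adjusted p = 0.600). Ripk3 and Il18bp were lower in the 3 ligated mice than in every CVST mouse, as were 7.21% of all genes. Lower without overlap were 2 of 19 death receptor, 2 of 9 IL-1 family, 2 of 19 apoptosome and 1 of 23 regulator genes. Another regulator and 1 of 13 sensors were higher without overlap, and some genes are in 2 lists. Il1b, named after its values were seen because caspase-1 acts on its product, was at 0 to 1.33 CPM over the 9 libraries and rested on at most 35 reads.

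With 4-PBA in ligated mice 1 of 105 genes passed, which is 0.952% beside 3.23% of all genes. Groups did not overlap for 7.73% of all genes. Ninj1, whose protein ruptures the plasma membrane at the end of lytic death, was at 6.74, 6.60 and 7.08 CPM in CVST+Ligation and at 9.54, 9.21 and 10.8 CPM in 4-PBA, without overlap (0.53 ± 0.19, adjusted p = 0.9998). Among the lists without a call, the smallest unadjusted p was that of Casp6 (-0.43, adjusted p = 0.9998), Nlrp6 (-1.07, adjusted p = 0.9998), Card19 (0.61, adjusted p = 0.9998), Il1rl2 (1.29, adjusted p = 0.9998), Ripk3 (0.69, adjusted p = 0.9998), Apaf1, the scaffold of the apoptosome (-0.48, adjusted p = 0.9998), and Capn2, a calpain (0.23, adjusted p = 0.9998).

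Between 4-PBA and CVST 5 of 105 passed, which is 4.76% beside 15.4% of all genes, and none after adjustment. Txnip, a thioredoxin inhibitor that can bind NLRP3, rose by 0.84 (adjusted p = 0.305). P2rx7, the ATP-gated channel whose opening triggers NLRP3, rose by 0.62 (adjusted p = 0.273), and Nfkb1, which encodes an NF-kB subunit, rose by 0.48 (adjusted p = 0.218), both without overlap. Groups did not overlap for 23.7% of all genes, in either direction. Of the 23 tested genes in the list of P2rx7 and Nfkb1, 3 were lower without overlap. Birc5, the inhibitor of apoptosis survivin, fell by 1.14 (adjusted p = 0.288) with overlapping groups. Ddit3 was at 65.7, 49.7 and 60.8 CPM in CVST and at 41.5, 47.7 and 44.7 CPM in 4-PBA and fell by 0.40 (adjusted p = 0.230). In the same comparison 10 of 10 oligodendrocyte markers had a positive difference, 7 of them at an unadjusted p of 0.05 (median 0.92), as had 8 of 8 choroid plexus markers, 3 of them at that p (median 1.52), and their part in these values was not tested. In the lists without a call the smallest unadjusted p was that of Casp6 (adjusted p = 0.339), Nlrp6 (adjusted p = 0.367), Ninj1 (adjusted p = 0.401), Il18bp (adjusted p = 0.676) and Tnfsf10, the death receptor ligand TRAIL (adjusted p = 0.397).

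**Figure D5:**
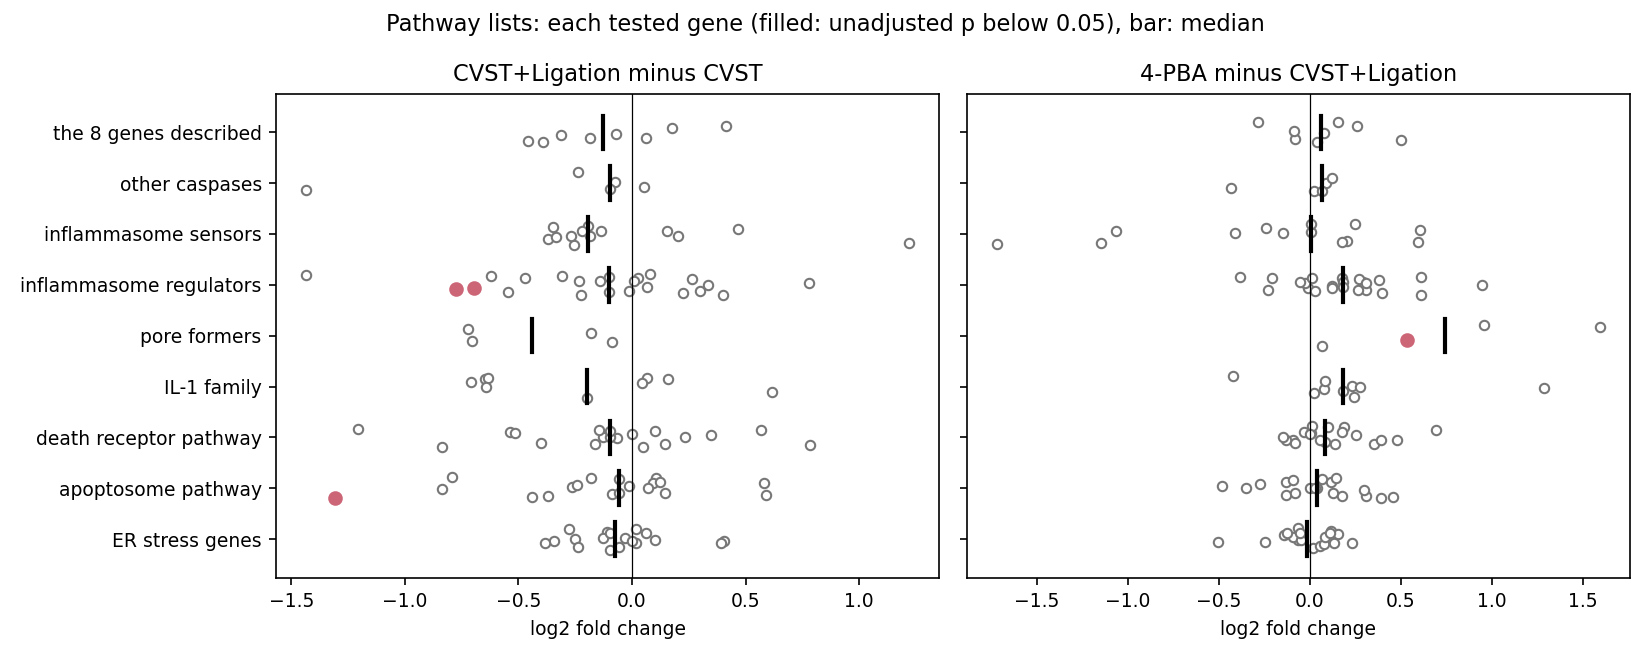
Log2 fold change (x axis) of each tested gene in the 8 lists and of the 8 genes described (rows), for CVST+Ligation minus CVST and 4-PBA minus CVST+Ligation; filled points have an unadjusted p below 0.05 and bars are medians. The calls are 3 genes with ligation, all lower, and Ninj1 with 4-PBA.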

How the data were processed

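Per the labels and methods, the authors filtered reads with fastp, aligned them with HISAT2 to mm10 and quantified genes with StringTie and RSEM; versions are not given in the sources used here. They deposited whole-number read counts per gene symbol and values that the methods call TPM. The deposited values are FPKM: each is the count divided by the library total and by a single length per gene, and the alternative planned on TPM was run on them. Groups came from the labels. The count model was edgeR 4.0.16 (R 4.3.3) with TMM scaling, filterByExpr (14746 of 20731 genes kept) and 1 quasi-likelihood fit of the 3 groups without covariates, with Benjamini-Hochberg adjustment over all genes tested. CPM values are on the TMM scale. Errors are the SE of the fit. The p-values of the main fit weigh a group difference against a spread between mice estimated from all 9 libraries and partly shared across genes. Genes called at an unadjusted p of 0.05 are named in the text, as is the gene with the smallest p where a list had none. The members and lists were chosen with earlier results of these data known. Coordinates are GENCODE M21 (GRCm38). Correlations used log2 CPM with a prior count of 2. The edgeR fit and its intervals were tested on counts simulated with the same spread for every gene and no outlying library, and the other steps were not. Alternatives were total counts or DESeq2 size factors for scaling, DESeq2 1.42.0, all genes with at least 1 count, at least 10 counts in every library, only the groups compared, the replicate number as a block, limma 3.58.1 on log2(FPKM + a pseudocount of 1 or 0.1), and leaving out single libraries. Leaving out 2 libraries together was chosen after seeing the data. Libraries of a group differed by at least 24.7 times the sampling noise (chi-square over degrees of freedom), so none repeats another. Plots were drawn with matplotlib 3.10.9.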

Additional observations from a re-analysis of the deposited data

How the results depend on the processing

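With all libraries, none of the 8 members passed an unadjusted p of 0.05 under any scaling, filter, tool or unit tried; calls appeared only when libraries were left out. The replicate block moved the pathway genes called from 3 to 5 (CVST+Ligation versus CVST), 1 to 3 (4-PBA versus CVST+Ligation) and 5 to 9 (4-PBA versus CVST), and the genes after adjustment to 1 in each of the first 2 comparisons. Under it the log2 fold change of Casp12 in 4-PBA versus CVST+Ligation was 0.18 and that of Casp1 in 4-PBA versus CVST 0.038. No source ties the replicate numbers to shared mice or days. Deviations of same-numbered mice correlated at -0.05 to 0.32, over 0.1 in 4 of 9 pairs, and those of other pairs at -0.36 to 0.13, over 0.1 in 1 of 18. Of 9 mice, 7 correlated best with a mouse of their own number, a hint from the data and not from the design.

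Genes after adjustment, in the order of the 3 comparisons, were 3, 0 and 18 with edgeR and 264, 22 and 855 with DESeq2. For 4-PBA versus CVST they were 112 with all genes that had a count, 6 where each library needed 10 or more counts, 234 with only the 2 groups, 87 with limma on log2(FPKM + 1) and 134 on log2(FPKM + 0.1). For CVST+Ligation versus CVST they were 0 with at least 10 counts, 1 with only the 2 groups and 13 on log2(FPKM + 0.1), and for 4-PBA versus CVST+Ligation 2 on log2(FPKM + 1). Pathway genes called were 2 in 4-PBA versus CVST+Ligation with only the 2 groups, and 10 in 4-PBA versus CVST on both FPKM scales. Signs turned for Casp9 in 4-PBA versus CVST (0.051 with total counts, 0.052 and 0.059 on the FPKM scales), for Il18 (0.070 and 0.074) and Casp1 (0.061, pseudocount 0.1) in CVST+Ligation versus CVST, for Casp12 in 4-PBA versus CVST+Ligation (0.090 and 0.24) and for Casp1 in 4-PBA versus CVST (0.051 and 0.15). The cause was not tested.

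Leaving out libraries, 1 at a time or the 2 together, gave these ranges. In CVST+Ligation versus CVST, 0 to 7 genes passed after adjustment and 1 to 7 pathway genes were called, and log2 fold changes were -0.62 to 0.19 (Casp1), -0.59 to 0.77 (Casp12), -0.051 to 0.12 (Casp9), -0.36 to 0.30 (Il18), -0.18 to 0.41 (Nlrp3), -0.48 to -0.31 (Casp8), -0.60 to -0.022 (Gsdmd) and -0.63 to -0.26 (Pycard). In 4-PBA versus CVST+Ligation, 256 to 1497 genes passed unadjusted and 0 to 2 after adjustment, 0 to 1 members and 1 to 9 pathway genes were called, and the changes were -0.22 to 0.25 (Casp1), -0.43 to 0.93 (Casp12), -0.047 to 0.76 (Casp8), -0.14 to 0.016 (Casp9), -0.17 to 0.45 (Gsdmd), -0.22 to 0.28 (Nlrp3), 0.17 to 0.37 (Il18) and -1.08 to 0.051 (Pycard). In 4-PBA versus CVST, 2 to 577 genes passed after adjustment, 0 to 1 members and 2 to 11 pathway genes were called, and the changes were -0.57 to 0.23 (Casp1), -0.44 to 0.37 (Casp8), -0.13 to 0.044 (Casp9), -0.48 to 0.15 (Gsdmd), -0.084 to 0.56 (Il18), -0.089 to 0.51 (Nlrp3), 0.17 to 0.56 (Casp12) and -1.53 to -0.41 (Pycard). The 577 genes, the 1 adjusted call of a member (Pycard) and 1482 unadjusted genes in 4-PBA versus CVST+Ligation came from leaving out CVST+Ligation replicate 2 and 4-PBA replicate 3 together. That setting was chosen after seeing the data, and these libraries were picked because they stood apart for Casp12 and Pycard, so its calls are not independent of the choice. Nlrp3, Casp1 and Casp12 rested on 15 to 101 reads per library.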

Other observations

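The 3 tested genes whose log2 CPM followed each member most closely over the 9 libraries, out of 14746, are given as a description. For Casp8 they were Anxa3 (r = 0.95), Adam8 (r = 0.95) and Gngt2 (r = 0.94). For Pycard they were Snrpb (r = 0.97), Fcgr1 (r = 0.97), an Fc receptor of myeloid cells, and Ube2c (r = 0.96). For Gsdmd they were Usp2 (r = 0.97), Cd48 (r = 0.96) and Edem1 (r = 0.94). For Nlrp3 they were Tmem241 (r = 0.95), Flt4 (r = 0.95), which encodes the receptor VEGFR3 of lymphatic endothelium, and Cmklr1 (r = 0.94). For Casp12 they were Ogdhl (r = 0.97), Samm50 (r = 0.96) and Zfp768 (r = 0.96). For Casp1 they were Trpt1, Alad and Wrap53 (r = 0.92 to 0.95), for Casp9 Noc3l, Ddhd2 and Irs1 (r = 0.96) and for Il18 Rccd1, Hexim1 and Rap1a (r = 0.95 to 0.96). No gene was in the lists of 2 members. Among the members, Pycard and Gsdmd followed each other most (r = 0.74), then Casp1 and Il18 (r = 0.72), and Nlrp3 and Il18 ran opposite (r = -0.56).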
